A study of Mus musculus with 21 samples.

Results

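Sirtuins are enzymes that remove acetyl and other acyl groups from lysines and spend NAD+ for each group removed. Mice have 7 sirtuin genes, Sirt1 to Sirt7, and the rows with these names were found in all 21 libraries, 7 of the 55335 gene identifiers measured. SIRT1, SIRT6 and SIRT7 act mainly in the nucleus, SIRT2 mainly in the cytoplasm, and SIRT3, SIRT4 and SIRT5 in mitochondria. In the ovary, sirtuins are studied for their links with NAD+ supply, oxidative stress, genome stability and the loss of oocyte quality with age.

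The libraries came from female ICR mice in 5 groups. Young mice were 6 to 8 weeks old and Aged mice 18 months old. The other 3 groups were aged mice killed 3 weeks after human umbilical cord mesenchymal stem cells had been placed under the ovarian capsule. The transplanted cells were Unsorted, LRP1high or LRP1low, where LRP1 is a surface receptor that takes up lipoproteins and other ligands, and the last 2 names stand for the cells with the strongest and the weakest LRP1 signal among LRP1-positive cells in a flow cytometry sort. The mice were not a genetic model, and the cells given were human, so the mouse sirtuin RNA is that of the host. MII oocytes gave 12 libraries, 3 Young, 2 Aged, 2 Aged + Unsorted, 3 Aged + LRP1high and 2 Aged + LRP1low. Granulosa cells, taken off the cumulus-oocyte complexes with hyaluronidase, gave 9 libraries, 1 Young, 2 Aged, 1 Aged + Unsorted, 3 Aged + LRP1high and 2 Aged + LRP1low. The labels call the replicates biological, and nothing says how many cells or animals each library holds, so a p-value measures only the spread between these libraries. Levels are given in FPKM, which is scaled to the length of the transcripts used and to the total of the library. Sirtuins of unlike length can thus be set side by side, though the transcripts used can differ between libraries.

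Several libraries stood apart from their labels before any sirtuin was read. The median FPKM of 10 oocyte genes, such as Zp3, Gdf9 and Bmp15, was between 84.9 and 1001 in 8 of the 12 oocyte libraries. In the other 4, Young replicate 1, Aged replicate 1 and both Aged + LRP1low libraries, it was between 0.892 and 11.6, and these are called marker-poor here. The granulosa library of Aged + Unsorted had an oocyte marker median of 800 and a granulosa marker median of 0.809. Its values across genes correlated most with those of oocyte Aged + Unsorted replicate 2 (Pearson r = 0.967 on log2 values). A granulosa marker median of at least 20 was found only in granulosa Young (50.4) and granulosa Aged + LRP1high replicate 3 (21.4). The predicted gene Gm10800 took 6.92% to 86.6% of the TPM of granulosa libraries and 0.000689% to 78.1% of that of oocyte libraries. The depth was 0.278 to 3.40 aligned gigabases in oocytes and 0.335 to 1.49 in granulosa cells, so that a single read of 150 bases added between 0.0441 and 0.540 to the FPKM of a gene 1 kilobase long.

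All 7 sirtuin rows had the identifiers and coordinates of GRCm38. Sirt1 (ENSMUSG00000020063.16) lies on chromosome 10 from 63319005 to 63381704, on the minus strand, and overlaps Gm16145. Sirt2 (ENSMUSG00000015149.14) lies on chromosome 7 from 28766735 to 28788661, on the plus strand, and overlaps Nfkbib. Sirt3 (ENSMUSG00000025486.17) lies on chromosome 7 from 140863666 to 140882309, on the minus strand, and overlaps Ric8a and Psmd13. Sirt4 (ENSMUSG00000029524.16) is on chromosome 5 from 115478010 to 115484725 and Sirt5 (ENSMUSG00000054021.6) on chromosome 13 from 43365496 to 43395203, and neither overlaps another gene. Sirt6 (ENSMUSG00000034748.16) is on chromosome 10 from 81621785 to 81627797, on the minus strand, and overlaps no gene. Sirt7 (ENSMUSG00000025138.14) is on chromosome 11 from 120618372 to 120625240, on the minus strand, and overlaps Mir6936 and Mafg. These overlaps are of whole gene spans, and shared exonic bases were not counted. The sources used here do not say whether strand was used in counting. Reads on any exonic bases shared with a partner therefore cannot be told apart from those of Sirt1, Sirt2, Sirt3 and Sirt7.

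Sirt6 RNA dominated the sirtuins of oocytes. SIRT6 is a chromatin deacetylase known for DNA repair, telomere maintenance and the repression of glycolytic genes. It had the highest FPKM of the 7 sirtuins in 10 of 12 oocyte libraries and in 2 of 9 granulosa libraries. In oocytes, Sirt6 was at an FPKM of 4.91, 355.8 and 318.3 in Young, 37.8 and 61.2 in Aged, and 152.9 and 53.3 in Aged + Unsorted. It was at 364.4, 791.4 and 1001 in Aged + LRP1high, and at 6.72 and 3.44 in Aged + LRP1low. All 3 Aged + LRP1high oocyte libraries were therefore above every other oocyte library, and both Aged + LRP1low libraries were below every library but Young replicate 1.

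In granulosa cells, Sirt6 was listed at 0 in both Aged libraries, at an FPKM of 0.641 in Young, and at 6.91, 0.446 and 0.595 in Aged + LRP1high. It was listed at 0 in Aged + LRP1low replicate 1 and at 8.00 in replicate 2. The highest granulosa value, 47.9, was that of the Aged + Unsorted library with oocyte marker RNA. Without that library, the granulosa values ran from 0 to 8.00 with a median of 0.521.

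Sirt6 was higher in the oocyte libraries rich in oocyte markers than in the marker-poor ones, but among the rich ones its order was not that of the markers. In the 8 oocyte libraries rich in marker RNA, Sirt6 ran from 53.3 to 1001 with a median of 337.0, and it ranked between place 33 and place 1691 among all gene identifiers. It made up 41.7% to 98.4% of the summed FPKM of the 7 sirtuins there, with a median of 87.2%. In the 4 marker-poor oocyte libraries it ran from 3.44 to 37.8 and made up 8.22% to 46.9% of the sum. Among the rich libraries, Sirt6 was at 1001 and 355.8 where the marker median was 161.3 and 84.9, in Aged + LRP1high replicate 3 and Young replicate 2, and at 53.3 where it was 1001, in Aged + Unsorted replicate 2. The ratio of Sirt6 to the marker median ran from 0.0532 to 6.21 there. Among the marker-rich libraries alone, the 3 Aged + LRP1high values stayed above the 2 Young values, which were above both Aged + Unsorted values and the single Aged value. In bulk libraries, fewer cells of a type and less RNA per cell cannot be told apart.

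**Figure D1:**
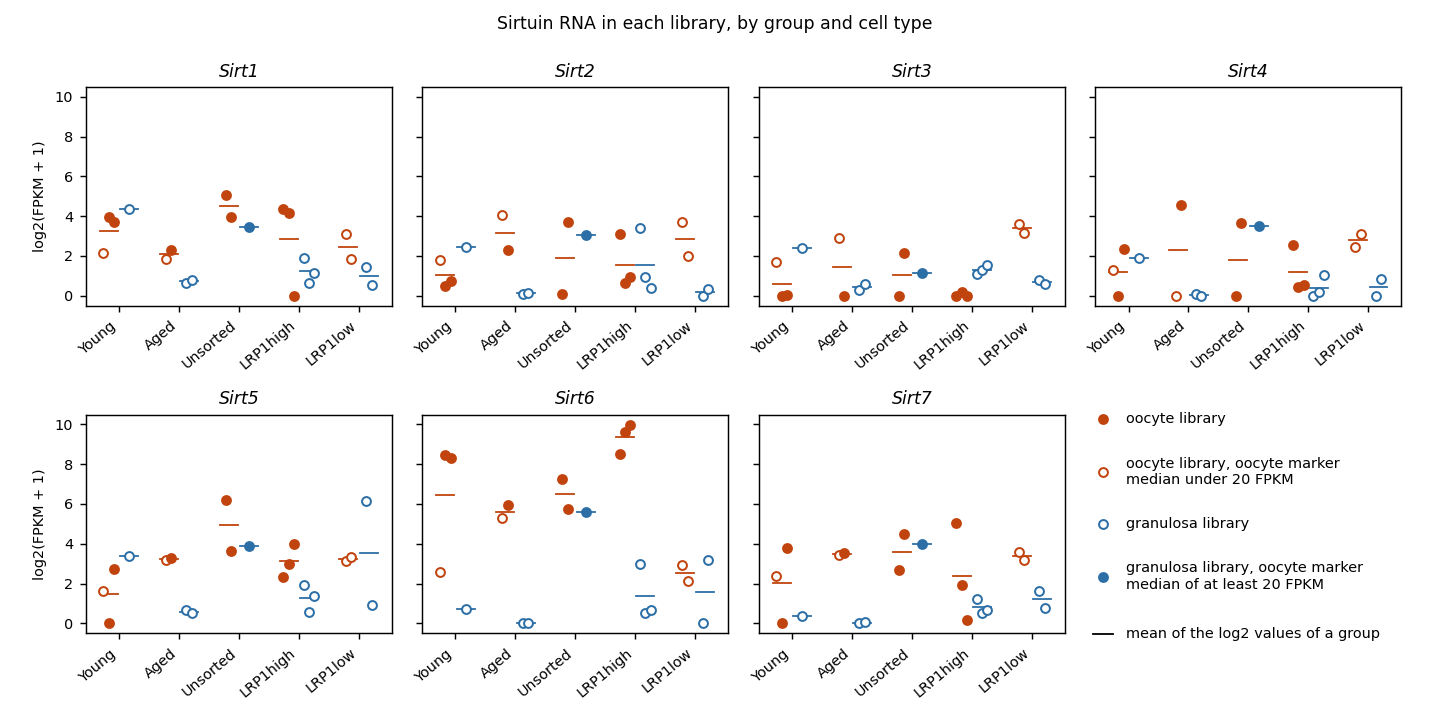
Level of each sirtuin on the scale of log2(FPKM + 1) by group, with 1 point per library, oocytes in orange and granulosa cells in blue. Filled points are libraries with an oocyte marker median of at least 20 FPKM and lines are group means of the log2 values. Sirt6 alone exceeds a value of 8, in Young and Aged + LRP1high oocytes.

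**Figure D2:**
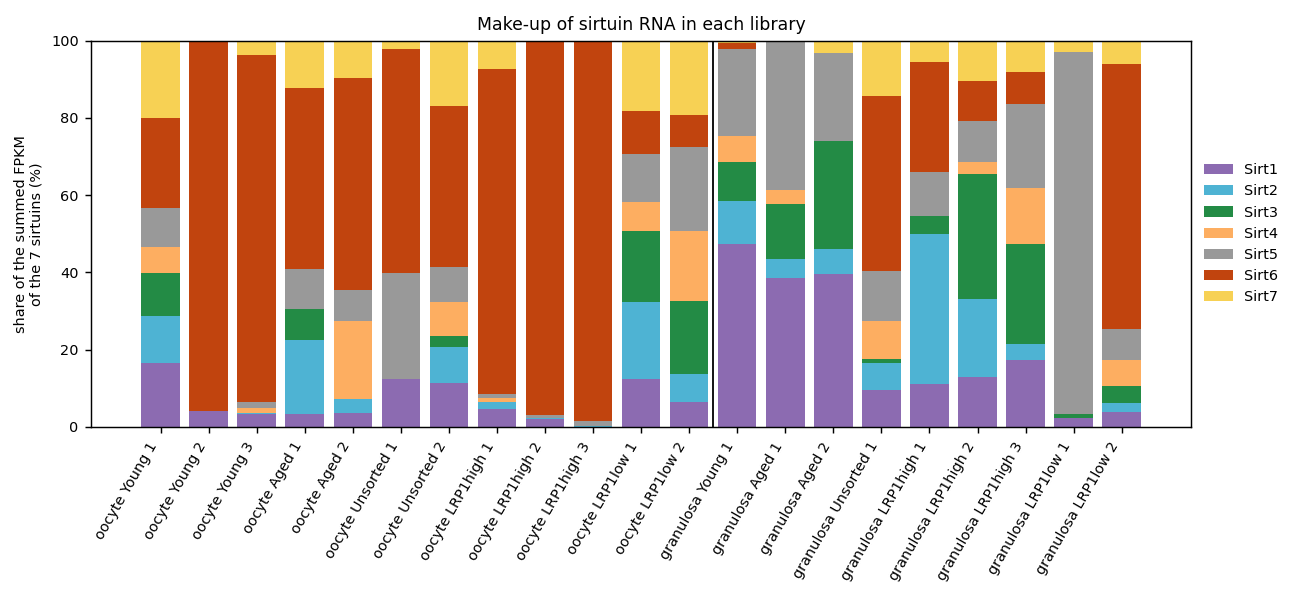
Share of each sirtuin in the summed FPKM of the 7, in percent, for each library, with oocytes left of the line and granulosa cells right of it. Sirt6 fills 41.7% to 98.4% of the bar in the 8 oocyte libraries rich in oocyte markers and 8.22% to 46.9% in the other 4.

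The deposited coverage, set against FPKM, bears on which transcripts of a sirtuin were used for its level. If coverage is averaged over all exonic bases of a gene, its ratio to FPKM, per aligned gigabase, is a share of those bases. That share is the one of the transcript used when the reads were given to a single transcript. For Sirt6 this ratio was within 0.001 of that of ENSMUST00000042923.8, a transcript of 8 exons and 1891 of the gene's 2785 exonic bases, in 11 of the 18 libraries above 0. In the remaining ones it was between 0.319 and 0.678. Among these, oocyte Aged replicate 1 matched ENSMUST00000119324.7 and granulosa Aged + LRP1high replicate 2 matched ENSMUST00000143424.1. For Sirt1 the ratio was within that tolerance of ENSMUST00000120239.7, of 14 exons and 4430 bases, in 10 of 20 libraries. All these transcripts of Sirt6 and Sirt1 are annotated as protein-coding. For Sirt7 the match was to ENSMUST00000127882.7, annotated as a retained-intron transcript, in 7 of 19 libraries. For Sirt4 the highest level, in oocyte Aged replicate 2, matched ENSMUST00000154729.1, also a retained-intron transcript. Its other matches were to a coding transcript. The level of a sirtuin need therefore not be that of a coding transcript. For Sirt2 the ratio was within that tolerance of no transcript in any of the 20 libraries above 0. Yet the same ratio, 0.285586, came back in oocyte Young replicate 3 and oocyte Aged + Unsorted replicate 2. A missing match therefore does not show that the reads fell on several transcripts. The ratio of Sirt5 was low throughout, between 0.129 and 0.179. No annotated transcript of Sirt5 has more than 2425 of its 6093 exonic bases. Its coding transcripts of 8 or 9 exons have shares of 0.224 to 0.294, above all these ratios. In 2 of 20 libraries above 0 the ratio of Sirt5 was within that tolerance of ENSMUST00000221955.1, a retained-intron transcript. These were oocyte Aged + Unsorted replicate 2 and granulosa Aged + LRP1low replicate 1, the granulosa library with the highest Sirt5.

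The other nuclear sirtuins had lower levels in oocytes. SIRT1 deacetylates p53, FOXO proteins and other regulators of stress and metabolism. Sirt1 RNA in oocytes was at an FPKM of 3.46, 14.7 and 11.9 in Young, 2.63 and 3.96 in Aged, and 32.3 and 14.5 in Aged + Unsorted. It was at 19.6 and 17.2 in Aged + LRP1high replicates 1 and 2, listed at 0 in replicate 3, and at 7.54 and 2.63 in Aged + LRP1low. Both Aged + Unsorted libraries were above both Aged libraries, while Aged + LRP1high lay on both sides of them. In granulosa cells Sirt1 was at 19.7 in Young and 10.1 in the Aged + Unsorted library with oocyte marker RNA, and at 0.455 to 2.70 in the other 7 libraries.

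SIRT7 is the nucleolar sirtuin, known for its part in ribosomal RNA transcription. Sirt7 RNA in oocytes was at an FPKM of 4.14 and 12.7 in Young replicates 1 and 3 and listed at 0 in replicate 2. It was at 9.91 and 10.6 in Aged, 5.37 and 21.5 in Aged + Unsorted, 31.4, 2.81 and 0.147 in Aged + LRP1high, and 11.1 and 8.10 in Aged + LRP1low. The values of Aged + LRP1high enclosed those of every other group but for the 0 in Young. In granulosa cells Sirt7 was at 15.1 in the Aged + Unsorted library with oocyte marker RNA and between 0 and 2.12 in the other 8.

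The cytoplasmic and mitochondrial sirtuins had no common pattern over the groups. SIRT2 deacetylates tubulin and other cytoplasmic proteins. Sirt2 RNA in oocytes was at an FPKM of 2.52, 0.400 and 0.703 in Young, 15.4 and 3.92 in Aged, and 0.0706 and 12.0 in Aged + Unsorted. It was at 7.62, 0.546 and 0.948 in Aged + LRP1high, and 12.2 and 3.04 in Aged + LRP1low. The lower of the Aged values was still above the highest of Young, and the transplanted groups overlapped with Aged.

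SIRT3 is the main deacetylase of the mitochondrial matrix. Sirt3 RNA in oocytes was at an FPKM of 2.29 and 0.0413 in Young replicates 1 and 3 and listed at 0 in replicate 2. It was at 6.53 in Aged replicate 1 and listed at 0 in replicate 2, and listed at 0 in Aged + Unsorted replicate 1 with 3.38 in replicate 2. In Aged + LRP1high it was at 0.160 in replicate 2 and listed at 0 in replicates 1 and 3, whereas in Aged + LRP1low it was at 11.2 and 8.00. The 4 marker-poor oocyte libraries held 2.29 to 11.2, and the 8 marker-rich ones 0 to 3.38 with a median of 0. The only marker-rich library above 0.2 was Aged + Unsorted replicate 2. All 9 granulosa libraries were above 0, between 0.217 in Aged replicate 1 and 4.22 in Young.

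SIRT4 and SIRT5 remove acyl groups other than acetyl in mitochondria, SIRT5 chiefly succinyl, malonyl and glutaryl groups. Sirt4 RNA ran from 0 to 22.7 in oocytes, with its highest value in Aged replicate 2 and 3 libraries listed at 0, and from 0 to 10.4 in granulosa cells. That 10.4 was in the Aged + Unsorted library with oocyte marker RNA, and the other 8 granulosa libraries ran from 0 to 2.79. In the order of the oocyte group means, each group overlapped with the next. Sirt5 RNA in oocytes ran from 0 in Young replicate 2 to 72.7 in Aged + Unsorted replicate 1. Aged (8.23 and 8.84) and Aged + LRP1low (7.70 and 9.04) oocytes were close together and above all 3 Young libraries (2.07, 0 and 5.76). In granulosa cells Sirt5 was at 69.6 in Aged + LRP1low replicate 1 and at 0.916 in replicate 2, with 0.418 to 13.8 in the other 7 libraries. The 13.8 was in the Aged + Unsorted library with oocyte marker RNA. Granulosa Aged + LRP1low replicate 1 also had the highest median of 6 luteal genes, at 163. Sirt5 was the leading sirtuin there, with 93.8% of the sum.

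The comparison of Aged with Young asked whether sirtuin RNA changed with age. None of the 7 sirtuins was called different in oocytes, where a call is a change of over 1.5-fold with an adjusted p-value below 0.05 in limma over 28004 genes. Of all genes tested, 0.0964% were called, which is 27 genes. That number was 9547 without Aged replicate 2, 875 without Aged replicate 1 and 798 without Young replicate 1. Leaving out either of the other Young libraries gave 0. Sirt6 differed by -0.84 on the log2(FPKM + 1) scale (standard error 1.49, adjusted p = 0.787), a scale that understates the change of low genes. The other 6 differed by between -1.19 for Sirt1 and 2.14 for Sirt2, with adjusted p-values of 0.515 to 0.712 and no unadjusted p-value under 0.05. The median difference of all genes was 0.94, and Sirt1 and Sirt6 were at percentiles 3.25 and 7.08 of all differences. The Sirt6 difference rested on which libraries were kept. Leaving out Young replicate 2 gave 0.18 and leaving out Young replicate 3 gave 0.097, but it was -2.78 (adjusted p = 0.0936) without the marker-poor Young replicate 1 and -2.44 (adjusted p = 0.374) without all marker-poor libraries. Granulosa Young held 1 library and was not tested.

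Transplantation of Unsorted cells was compared with no transplantation in Aged mice. In oocytes 0 of 7 sirtuins and 0% of all genes were called by limma, with 476 genes higher and 1971 lower before adjustment at p under 0.05. The number of genes called was 10678 without Aged replicate 2, 863 without Aged replicate 1 and 54 without Aged + Unsorted replicate 2, with 0 sirtuins among them. Sirt6 differed by 0.90 (standard error 1.63, adjusted p = 0.784). Its sign changed with quantile normalization (-0.52) and with the oocyte markers as a covariate (-0.62). The other 6 ran from -1.27 for Sirt2 to 2.42 for Sirt1, none of them with an unadjusted p-value under 0.05. Granulosa Aged + Unsorted held 1 library and was not tested.

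Of the comparisons with Aged oocytes, that of LRP1high cells gave the largest difference of Sirt6. Every Aged + LRP1high oocyte library was above both Aged libraries, 364.4 to 1001 against 37.8 and 61.2. The difference was 3.75 (standard error 1.49), a 13.5-fold change on the log2(FPKM + 1) scale, with an unadjusted p = 0.0287 and an adjusted p = 0.344, so Sirt6 was not called. Of the 7 sirtuins 0 were called, and of all genes 0.771%, with a median difference of all genes of -1.05. These 216 genes became 0 without any 1 of the 3 Aged + LRP1high libraries and 1062 without Aged replicate 1. Sirt6 was at percentile 99.6 of all differences. Over the 15 alternatives the Sirt6 difference ran from 2.60 to 4.20, with adjusted p-values of 0.119 to 0.830. Without the marker-poor oocyte libraries it was 3.41 (standard error 0.87, adjusted p = 0.119), with a single Aged library left. The other 6 sirtuins ran from -1.60 to 0.77, with adjusted p-values of 0.400 to 0.991. Without Aged replicate 2, Sirt3 was called lower (-2.84, adjusted p = 0.0403), together with 11409 genes in all, and the Aged library then left was marker-poor.

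LRP1low cells gave the opposite sign for Sirt6 against Aged, with no call. The 2 Aged + LRP1low oocyte libraries were below both Aged libraries, and the difference was -3.07 (standard error 1.63, adjusted p = 0.452). It was -1.34 (adjusted p = 0.847) with the oocyte markers as a covariate and -4.75 (adjusted p = 0.172) with quantile normalization. Of the 7 sirtuins 0 were called and of all genes 3.17%, or 887 genes, a number that was 0 without either Aged + LRP1low library, 5251 without Aged replicate 1 and 3010 without Aged replicate 2. Sirt3 was at 11.2 and 8.00 in Aged + LRP1low against 6.53 and 0 in Aged and differed by 1.93 (standard error 1.06, adjusted p = 0.468). That difference was 3.39 (adjusted p = 0.0441, called) without Aged replicate 1, 0.48 (adjusted p = 0.905) without Aged replicate 2 and 0.94 (adjusted p = 0.826) with the oocyte markers as a covariate. The other 5 differed by between -0.30 and 0.50. Both Aged + LRP1low libraries were marker-poor, so that no comparison with this group could be made among marker-rich libraries.

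Aged + LRP1high and Aged + LRP1low oocytes differed in Sirt6 and Sirt3, in opposite directions. Sirt6 was higher in Aged + LRP1high by 6.82 (standard error 1.49, adjusted p = 0.0207), with 364.4 to 1001 against 3.44 and 6.72. Sirt3 was lower, with a difference of -3.32 (standard error 0.97, adjusted p = 0.0366), with 0 to 0.160 against 8.00 and 11.2. Those were 2 calls among the 7 sirtuins, against 26.0% of all genes, 340 of them higher and 6951 lower, with a median difference of -1.89. Under quantile normalization, which brings that median to -0.01, both sirtuins were called, with 148 genes higher and 556 lower. The difference of Sirt6 was at percentile 99.8 and that of Sirt3 at percentile 3.04 of all differences. Sirt1, Sirt2, Sirt4, Sirt5 and Sirt7 differed by between -1.61 and 0.37, with adjusted p-values of 0.371 to 0.933.

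Both calls were lost when a library was left out and with the oocyte markers as a covariate. Leaving out any of the 5 libraries of these groups took Sirt6 to adjusted p-values between 0.0605 and 0.212 and Sirt3 to between 0.0775 and 0.243, with differences of 6.42 to 7.25 and of -3.54 to -3.10. The number of genes called fell to 0 without any of the 3 Aged + LRP1high libraries or without Aged + LRP1low replicate 2, and to 319 without Aged + LRP1low replicate 1. With the mean of the 10 oocyte markers as a covariate, Sirt6 differed by 3.95 (standard error 1.53, adjusted p = 0.247) and Sirt3 by -1.67 (standard error 1.00, adjusted p = 0.446). The oocyte marker median was 161.3 to 799.1 in Aged + LRP1high and 5.02 and 7.77 in Aged + LRP1low, with 0 and 1 of the 10 markers listed at 0 in the latter. Gm10800 took 0.0390% to 1.52% of the TPM in Aged + LRP1high and 37.5% and 55.5% in Aged + LRP1low. In these libraries the transplant and the oocyte RNA content cannot be told apart.

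**Figure D3:**
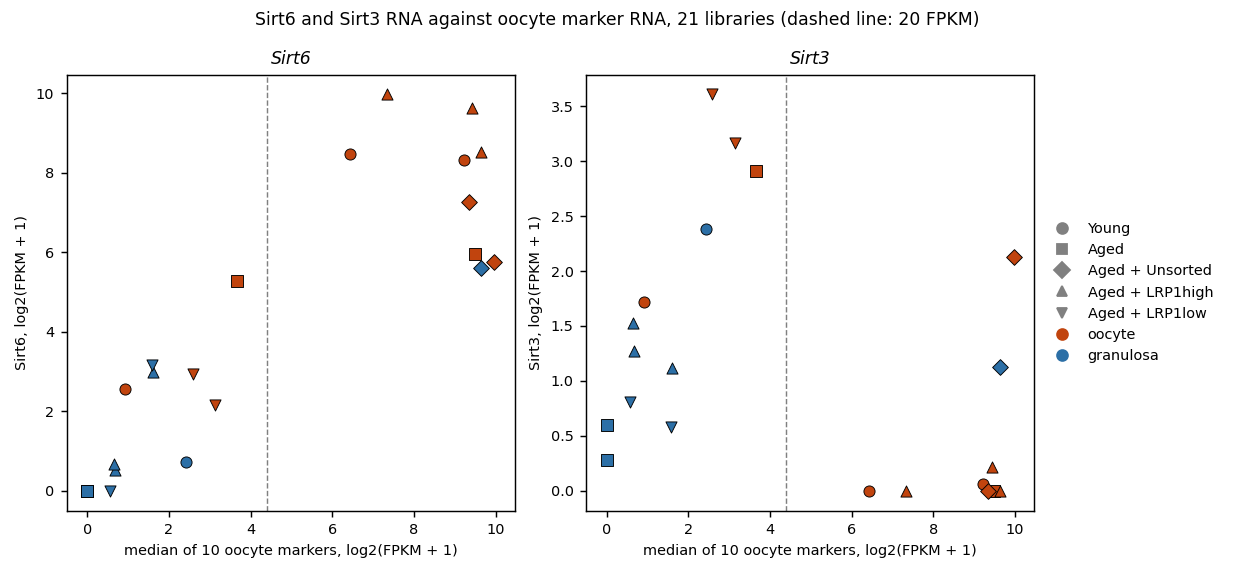
Sirt6 (left) and Sirt3 (right) against the median of 10 oocyte markers in the 21 libraries, both axes as log2(FPKM + 1), with symbols for groups and colours for cell types. Right of the dashed line at 20 FPKM, Sirt6 is at 47.9 to 1001 FPKM, and Sirt3 is at 0 to 3.38 FPKM.

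In granulosa cells, LRP1high and LRP1low were each compared with Aged over 13002 genes. For LRP1high, 0 of 7 sirtuins and 0% of all genes were called by limma, with 1039 genes higher and 67 lower before adjustment at p under 0.05. Sirt3 was at 1.17, 1.42 and 1.88 in Aged + LRP1high and at 0.217 and 0.513 in Aged, without overlap, and differed by 0.87 (standard error 0.35, unadjusted p = 0.0475, adjusted p = 0.458). That difference was at percentile 48.2 of all differences, and over 12 alternatives it ran from 0.0034 to 1.83. Sirt6 differed by 1.40 (standard error 1.16, adjusted p = 0.497), and by 0.60 to 3.79 over 13 alternatives. The median difference of all genes was 0.89. Both Aged libraries were low in sirtuin RNA, with a summed FPKM of the 7 genes of 1.53 and 1.83, against 4.395 to 24.4 in Aged + LRP1high. This was not particular to sirtuins. They had 2734 and 2089 genes at an FPKM of at least 1, against 4842 to 21463 in Aged + LRP1high. Gm10800 took 81.9% and 83.3% of their TPM, against 61.0% to 86.6%.

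For LRP1low, 0 of 7 sirtuins and 0% of all genes were called by limma, with 397 genes higher and 96 lower before adjustment at p under 0.05. Sirt6 differed by 1.58 (standard error 1.27, adjusted p = 0.920), which came from replicate 2, since replicate 1 and both Aged libraries were listed at 0. Sirt5 had the largest difference, 2.95 (standard error 1.61, adjusted p = 0.904), which rested on the 69.6 of replicate 1. Without replicate 2 that difference was 5.55 (adjusted p = 0.0241) and called, together with 766 genes in all, with the lone replicate 1 assumed to vary like the other groups. The granulosa marker medians of these 2 groups were 0.121 to 0.791, so the label of granulosa cells rests on few markers in them.

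Between cell types, Sirt6 was the sirtuin that differed. In a model with the group as a term over all 21 libraries and 21767 genes, Sirt6 was higher in oocytes by 4.77 (standard error 0.84), a 27.3-fold change on the log2(FPKM + 1) scale, with an adjusted p = 0.00357. It was 1 of 7 sirtuins called, against 6.68% of all genes, which is 1453 genes and became 786 to 2651 with a library left out, and it was at percentile 99.9 of all differences. The call held without each of the 21 libraries in turn, with differences of 4.45 to 5.38. In Aged + LRP1high alone, with 3 libraries of each cell type, the difference was 7.97 (standard error 1.01, adjusted p = 9.67e-05). Without the 4 marker-poor oocyte libraries and the granulosa library with oocyte markers it was 7.43 (standard error 0.73, adjusted p = 1.47e-06), a choice made after the data had been seen. That choice used oocyte markers only. Of the granulosa libraries, only Young (50.4) and Aged + LRP1high replicate 3 (21.4) had a granulosa marker median of at least 20. In Aged + LRP1high replicates 1 and 2 it was 1.26 and 0.326. With these, the granulosa side of the comparison rests largely on the label. With TPM rescaled without Gm10800 the Sirt6 difference was 5.35 (standard error 0.89, adjusted p = 0.00149). Under quantile normalization, which takes the median difference of all genes from 0.63 to 0.03, it was 3.39 (standard error 1.00, adjusted p = 0.101) and no longer called. That scaling turned the calls over all genes from 1415 higher and 38 lower in oocytes to 48 higher and 169 lower.

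Sirt7 came next, higher in oocytes by 1.82 (standard error 0.59, adjusted p = 0.0599), which missed the threshold. It was called with TPM (2.51, adjusted p = 0.0222). It was also called without oocyte Young replicate 2 (1.97), without oocyte Aged + Unsorted replicate 1 (2.00), without oocyte Aged + LRP1high replicate 3 (2.12) and without the granulosa Aged + Unsorted library (2.17). Sirt1 to Sirt5 differed by between 0.10 for Sirt3 and 1.04 for Sirt1, with adjusted p-values of 0.278 to 0.913. The difference between cell types in the change of LRP1high against Aged was tested as well. In that test 0 of 7 sirtuins and 0% of all genes were called by limma, with 48 genes higher and 3445 lower before adjustment at p under 0.05. Without oocyte Aged replicate 2, Sirt3 (-3.71) and 7800 genes in all were called, and without oocyte Aged replicate 1, 0 sirtuins and 583 genes. Sirt6 had a difference of differences of 2.36 (standard error 1.99, adjusted p = 0.463).

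**Figure D4:**
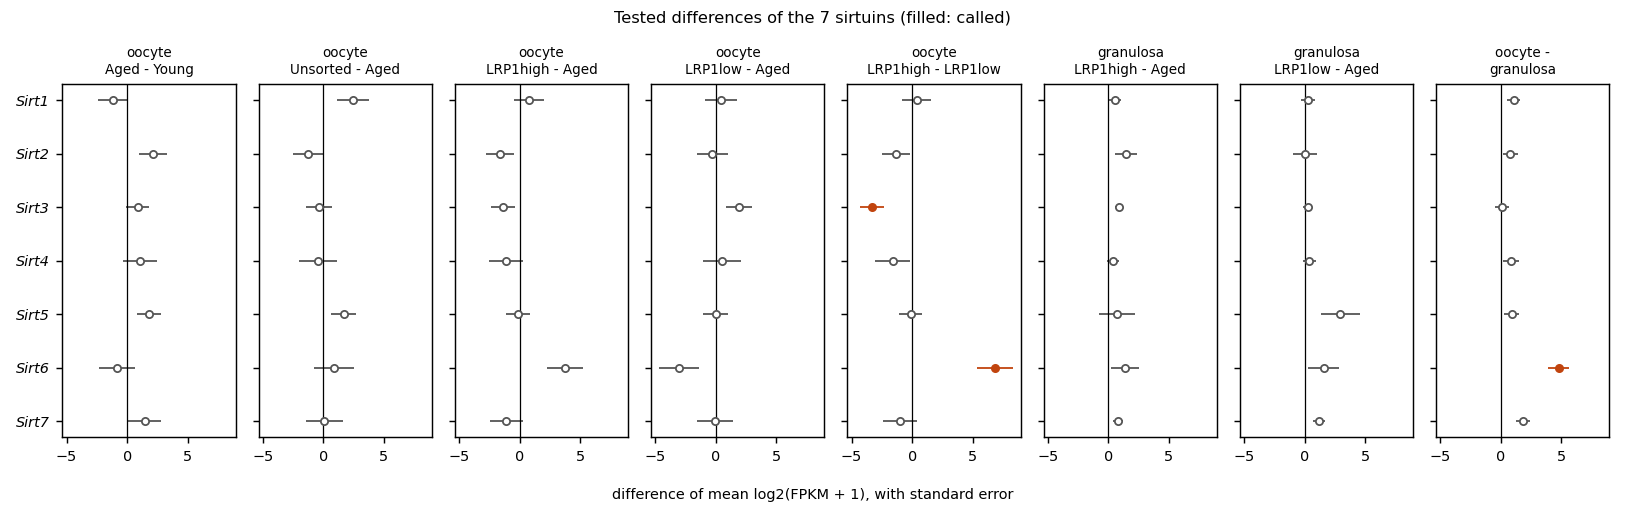
Differences of the 7 sirtuins on the log2(FPKM + 1) scale with standard errors for the 8 comparisons of groups or cell types, filled where called. The 3 filled points are Sirt6 (6.82) and Sirt3 (-3.32) in oocytes of Aged + LRP1high minus Aged + LRP1low, and Sirt6 (4.77) in oocytes minus granulosa cells.

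Genes around the sirtuins were read from lists by role. Foxo3, a transcription factor that SIRT1 and other sirtuins deacetylate and that holds primordial follicles dormant, shared part of the pattern of Sirt6. In oocytes Foxo3 was at an FPKM of 4.96, 1211 and 776.4 in Young, 68.6 and 172.9 in Aged, and 288.6 and 159.1 in Aged + Unsorted. It was at 634.3, 757.2 and 1233 in Aged + LRP1high, and at 9.11 and 3.30 in Aged + LRP1low. It was higher in Aged + LRP1high than in Aged + LRP1low oocytes by 6.99 (standard error 1.79, adjusted p = 0.0286) and higher in oocytes than in granulosa cells by 3.999 (standard error 0.95, adjusted p = 0.0118). As for Sirt6, its 4 lowest oocyte values were those of the marker-poor libraries. Unlike those of Sirt6, its values of 1211 and 776.4 in Young were above the 634.3 and 757.2 of Aged + LRP1high.

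Of 10 tested substrates of sirtuins among 13 listed, 1 rose and 3 fell in Aged + LRP1high against Aged + LRP1low oocytes, where 26.0% of all genes were called, and 0 of 10 were called in any of the 4 comparisons of oocytes that involve Aged. The largest falls were those of Acss2, an acetyl-CoA synthetase that SIRT1 activates (-3.69, adjusted p = 0.0312), and of Idh2, a mitochondrial isocitrate dehydrogenase that SIRT3 deacetylates (-2.89, adjusted p = 0.0362). The median of the 10 was -0.98, against -1.89 over all genes. Between cell types Foxo3 was the 1 called substrate of 11 tested, where 6.68% of all genes were called.

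Genes of NAD synthesis and of other NAD consumers were also read against the 26.0% of all genes called between the transplants, of which most were lower in Aged + LRP1high. Against Aged + LRP1low, Aged + LRP1high oocytes had 0 higher and 3 lower of 13 genes of NAD synthesis (median -1.83), and 0 higher and 3 lower of 6 other NAD consumers (median -2.14). Those lower were Nmnat3 (-3.72), Nmnat2 (-2.92) and Nmrk2 (-2.38), which make NAD+ from nicotinamide mononucleotide or make that precursor, and the consumers Sarm1 (-2.61), Parp3 (-2.29) and Cd38 (-2.22), with adjusted p-values of 0.0192 to 0.0479. Against Aged, Nmnat3 (-3.60, adjusted p = 0.0467) and Bst1, which cleaves NAD+ (-4.05, adjusted p = 0.0439), were lower, in a comparison in which 0.771% of all genes were called. Both calls were lost without any 1 of the 3 Aged + LRP1high libraries, with a pseudocount of 0.1 and with the replicate number as a block, since 0 genes were called then. Nmnat3 was at 7.35 and 19.5 in Aged, 0, 0.0556 and 0.190 in Aged + LRP1high, and 15.1 and 11.5 in Aged + LRP1low. Bst1 was at 21.7 and 11.2 in Aged, listed at 0 in Aged + LRP1high replicates 1 and 3 with 0.00872 in replicate 2, and at 2.00 and 3.95 in Aged + LRP1low. No gene of either list was called in Aged against Young, in Unsorted or LRP1low against Aged, in granulosa cells or between cell types.

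Among 5 regulators of sirtuins, Ccar2, an inhibitor of SIRT1, was lower in Aged + LRP1high than in Aged + LRP1low oocytes (-2.28, adjusted p = 0.0339). Senp1, which removes SUMO from SIRT1 and SIRT3, was higher in oocytes than in granulosa cells by 1.89 (standard error 0.53, adjusted p = 0.0311). It was the 1 called of 5 regulators between cell types, where 6.68% of all genes were called. Of the 11 zinc-dependent deacetylases, which share the substrate type of sirtuins but need no NAD+, Hdac4 (-3.45) and Hdac7 (-2.79) were lower in Aged + LRP1high than in Aged + LRP1low oocytes, with adjusted p-values of 0.0367 and 0.0323. None was called in another comparison. Those differences were in the comparison in which 26.0% of all genes were called and both Aged + LRP1low libraries were marker-poor. As 0 genes were called there without any 1 of the Aged + LRP1high libraries or without Aged + LRP1low replicate 2, each call of a listed gene in it, Foxo3 included, was lost then.

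The genes most like each sirtuin were found by the correlation of log2(FPKM + 1) over all 21 libraries, among the 3494 genes whose FPKM averaged at least 10. The points share libraries, depth and the amount of oocyte RNA, so the coefficients are a description. Sirt6 was most like Runx1t1 (Pearson r = 0.976 over 21 libraries, 0.957 over the 12 oocyte libraries) and Upf1 (0.972 and 0.940). Sirt1 was most like Zdhhc13 (0.936) and Zc3h13 (0.920), Sirt7 most like Tulp3 (0.938) and Nin (0.931), and Sirt4 most like Mrpl23 (0.936) and Svbp (0.897). Sirt5 was most like Snrpg (0.899) and Cdc123 (0.896). Sirt2 and Sirt3 had lower coefficients, with Tecr (0.816) and Mrpl4 (0.791) for Sirt2 and the predicted genes Gm10060 (0.824) and Gm21769 (0.7996) for Sirt3.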

How the data were processed

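RNA of 12 oocyte and 9 granulosa cell libraries was aligned by the authors with HISAT2 2.2.1, and StringTie 1.3.3b gave the deposited coverage, FPKM and TPM of each gene. The processing notes name the build mm9, whereas 54577 identifiers have the coordinates of the GRCm38 annotation (GENCODE), which was used. The labels name a stranded kit for polyA RNA and the methods Smart-seq2. The use of strand in counting is not given in the sources used here. Between 4 and 21 repeated identifiers per library were added up. Read counts were not analysed here, so values carry no counting interval. Depth was derived by dividing coverage by FPKM in 21693 genes of a single exon and taking the median.

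Values were analysed as log2(FPKM + 1), for genes averaging an FPKM of 1 or more, with limma 3.58.1 (lmFit, eBayes) in R 4.3.3. All groups of a cell type shared a model. Cell types were compared with the group as a term, and the interaction over all group and cell type means. Benjamini-Hochberg adjustment was over all genes. A call needed more than a 1.5-fold change and an adjusted p below 0.05, the criteria of the study. The fit was tested on simulated data. In total 9 comparisons were made.

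The 7 sirtuins were given in every library, with called members of the lists, at most 3 per list and comparison, and the 2 genes most alike. The sirtuins, gene lists and tests were chosen with earlier results of these data known. The alternatives were another pseudocount, no minimum, TPM, quantile normalization, trend and robust eBayes, a replicate block, a marker covariate and leaving out each library. Those without Gm10800, with coverage or without libraries picked by their markers were added after the data had been seen. Besides the oocyte, granulosa and luteal markers, 4 endothelial, 5 red blood cell, 7 immune and 6 stromal genes were read, with medians of at most 9.09, 7.99, 11.7 and 29.5 FPKM in any library. Figures were drawn with matplotlib 3.10.9 in Python 3.11.15.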

Additional observations from a re-analysis of the deposited data

How the results depend on the processing

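The Sirt6 difference between cell types kept its direction under all 32 alternatives and its call under 31. In Aged + LRP1high against Aged + LRP1low oocytes, 2 sirtuins were called as reported, 0 with a pseudocount of 0.1, 0 with the oocyte marker covariate and 1 with coverage per aligned gigabase, where the minimum left 6 sirtuins in the test and Sirt3 out of it. Leaving out any library of these groups gave 0. The count between cell types was 2 with TPM, 0 with quantile normalization, and 1 to 2 when a library was left out. With a library left out, the count was 0 to 1 in oocyte LRP1high against Aged, oocyte LRP1low against Aged, granulosa LRP1low against Aged and the interaction. Each 1 came from a single left-out library, oocyte Aged replicate 2 (Sirt3, also in the interaction, -3.71), oocyte Aged replicate 1 (Sirt3) or granulosa Aged + LRP1low replicate 2 (Sirt5).

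Signs of differences that were not called turned as follows. For Sirt6, Unsorted against Aged turned to -0.52 with quantile normalization and -0.62 with the marker covariate, and the interaction to -0.015 with a pseudocount of 0.1. For Sirt1, LRP1high against Aged turned to -0.037 with a pseudocount of 0.1, and LRP1high against LRP1low to -0.49 with that pseudocount, -0.93 with the covariate and -0.43 with TPM without Gm10800. For Sirt3 between cell types, the values were -0.85 with a pseudocount of 0.1, -0.74 with quantile normalization, -0.57 without the Aged + LRP1low group and -0.36 with TPM without Gm10800. With a library left out, Sirt6 ran from -2.78 to 0.18 in Aged against Young and from 0 to 3.17 in granulosa LRP1low against Aged. Sirt2 then ran from -3.07 to 0.53 in oocyte Unsorted and from -1.17 to 0.57 in oocyte LRP1low against Aged, Sirt1 from -0.39 to 1.80 in LRP1high against LRP1low, and Sirt3 from -0.18 to 0.44 between cell types. The cause was not tested. Of the differences not printed one by one, 24 of 276 turned with a library left out and 34 of 343 with another setting.

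The number of all genes called moved more. With no single library left out, it ran from 0 to 918 for Aged against Young (27 as reported), 0 to 889 for oocyte Unsorted (0), 0 to 1110 for oocyte LRP1high (216) and 0 to 11806 for oocyte LRP1low (887) against Aged. It ran from 0 to 25264 for LRP1high against LRP1low oocytes (7291), 0 to 48 and 0 to 9 for granulosa LRP1high and LRP1low (0 each), 192 to 2674 between cell types (1453) and 0 to 1118 for the interaction (0). With a single library left out, it ran from 0 to 9547 for Aged against Young, 0 to 10678 for oocyte Unsorted, 0 to 11409 for oocyte LRP1high and 0 to 5251 for oocyte LRP1low against Aged. It then ran from 0 to 319 for LRP1high against LRP1low oocytes, 0 to 1 and 0 to 766 for granulosa LRP1high and LRP1low, 786 to 2651 between cell types and 0 to 7800 for the interaction.

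Same-numbered libraries did not deviate together. Of 34 pairs of libraries 5 had a correlation over 0.1 (range -0.41 to 0.48), and in 0 of the 2 pairs of groups with 3 shared numbers did every pair exceed it, so the numbers were taken as names only. With the replicate number as a block, 0 sirtuins and 0 of all genes were called in Aged + LRP1high against Aged + LRP1low oocytes (Sirt6 6.21, adjusted p = 0.0840). The block changed no other count of sirtuins.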
